A study of Mus musculus with 12 samples.

Results

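Cell cycle and proliferation genes were followed across 12 microarrays of stromal cells sorted from the long bones of mice. The set was a list of 47 genes given by name. A gene was represented by the probe set that the platform annotation pairs with its symbol alone, and by the brightest such probe set where there were several. This gave values for 45 of the 47 genes, among 19937 genes with such a probe set. All 45 passed the filter on dim genes, a reading above the array's 40th percentile in at least 3 of 12 arrays, that left 14217 genes for testing, and 35 of them were above it in all 12. Cenph and Bub1 passed through osteoblasts: Cenph was above the percentile in 4 osteoblast and 0 endothelial arrays and Bub1 in 6 and 1. Cdkn1a and Ccnb1 are not analysed here.

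All animals were female C57BL/6 mice. Tumor-bearing mice had received 500000 EO771 cells, a mouse mammary cancer line, by injection into the heart, and the cells grew in the long bones for about 2 weeks. Tumor-free mice were the controls. Osteoblasts, the bone-forming cells, were sorted as CD51+ cells negative for GFP, Ter119, CD45, Sca1 and CD31, and endothelial cells, which line blood vessels, as Sca1+ CD31+ cells negative for GFP, Ter119 and CD45. The 2 cell types from mice with and without tumor made 4 groups of 3 arrays, which the labels name biological replicates. RNA of 5000 cells was amplified for each array. The labels leave unsaid whether the same mice gave both cell types. Values are the deposited log2 values, on which a difference of 1 is a doubling. The number of arrays limits the precision.

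Cells that divide copy their DNA in S phase and separate the copies in mitosis. S phase needs the licensing of replication origins by the Mcm helicase, its loaders Cdc6 and Cdt1 and its activator Cdc45, and a supply of nucleotides from enzymes such as ribonucleotide reductase, and E2F factors and cyclins D and E open the way to it. Mitosis is driven by Cdk1 with cyclins A and B, by the Polo and Aurora kinases and by the destruction of cyclins and securin, while kinetochore proteins, kinesins and spindle proteins move the chromosomes. Genes of mitosis are switched on late in the cycle, in part through a promoter element called the cell cycle genes homology region, CHR, and many S phase genes are switched on earlier by E2F factors. The transcripts of both groups are low in cells that have left the cycle, so their level in a sorted population follows both the share of cycling cells and the amount of transcript in each. These arrays cannot tell the number of cycling cells from the RNA per cell.

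The 45 genes with values were described by role. There were 10 genes of origin licensing and the replication fork and 4 of nucleotide supply, together the 14 S phase members. There were 9 mitotic kinases, cyclins and proteolysis genes and 13 of spindle, kinetochore and cytokinesis, together the 22 mitotic members. The rest were 5 genes of the G1 to S transition (Ccnd1, Ccnd2, Ccne1, Ccne2 and E2f1), 2 inhibitors of cyclin-dependent kinases, and Mki67 and Top2a, which act on the chromatin of cycling cells.

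Promoter sequences are shown for the members that differed between the cell types, because most of them act in mitosis and were higher in the same cells. RefSeq windows of assembly GRCm38.p6, from 250 bases before to 50 bases after the start of the gene, were at hand for 35 of the 45 genes and for 8 of the 9 members that differed in either group of mice. The 150 bases shown run on the gene's strand from 130 before to 20 after the start, and capitals mark CHR letters (TTTGAA or TTCGAA) and CCAAT boxes on either strand. TTCGAA reads the same on both strands, and no motif was required to be free of overlap with another. Prc1 had 2 windows in the table, of which 1 is shown.
Top2a, chr11:99024170-99024319, minus strand: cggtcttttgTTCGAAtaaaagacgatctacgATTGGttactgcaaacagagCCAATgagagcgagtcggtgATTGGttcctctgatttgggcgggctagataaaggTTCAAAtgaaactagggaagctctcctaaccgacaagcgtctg
Mki67, chr7:135716360-135716509, minus strand: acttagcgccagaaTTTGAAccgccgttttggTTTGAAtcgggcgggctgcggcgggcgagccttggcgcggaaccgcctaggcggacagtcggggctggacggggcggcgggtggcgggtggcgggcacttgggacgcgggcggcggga
Kif23, chr9:61946780-61946929, minus strand: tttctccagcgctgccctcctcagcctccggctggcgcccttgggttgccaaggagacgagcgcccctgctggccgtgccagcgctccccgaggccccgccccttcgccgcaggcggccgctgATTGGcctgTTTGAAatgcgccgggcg
Prc1, chr7:80294321-80294470, plus strand: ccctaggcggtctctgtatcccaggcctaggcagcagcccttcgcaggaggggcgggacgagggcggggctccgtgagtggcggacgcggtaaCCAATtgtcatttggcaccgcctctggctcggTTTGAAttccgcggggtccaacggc
Cenpf, chr1:189688067-189688216, minus strand: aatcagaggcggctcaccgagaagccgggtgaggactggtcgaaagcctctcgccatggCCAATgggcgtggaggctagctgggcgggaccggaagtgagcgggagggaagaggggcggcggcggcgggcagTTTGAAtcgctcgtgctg
Bub1, chr2:127831840-127831989, minus strand: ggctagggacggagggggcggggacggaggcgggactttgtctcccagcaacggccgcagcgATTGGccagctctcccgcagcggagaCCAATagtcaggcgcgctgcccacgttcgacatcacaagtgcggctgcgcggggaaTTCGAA
Cenph, chr13:100775880-100776029, minus strand: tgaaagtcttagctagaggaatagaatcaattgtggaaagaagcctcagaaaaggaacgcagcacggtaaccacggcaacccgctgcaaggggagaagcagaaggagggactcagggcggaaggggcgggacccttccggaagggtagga
Cdc45, chr16:18811953-18812102, minus strand: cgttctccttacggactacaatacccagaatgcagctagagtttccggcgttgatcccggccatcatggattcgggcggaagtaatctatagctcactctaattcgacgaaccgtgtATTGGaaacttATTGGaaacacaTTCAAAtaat

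The CHR letters begin at base 3 after the start in Kif23 and Cenpf and at base 5 before it in Prc1, and they occur more than once in Top2a and Mki67. The stretch shown of Cenph, a kinetochore gene, holds neither motif. Over the full windows, CHR letters were found in 13 of 17 mitotic members (76.5%), in 3 of 13 S phase members (23.1%) and in 16.3% of the 11205 tested genes with a window. CCAAT was found in 88.2%, 69.2% and 41.5% of these groups. The letters TTTNNCGC, searched on both strands as a stand-in for an E2F site, were found in 1 of 17 mitotic members (5.9%), in 7 of 13 S phase members (53.8%) and in 9.0% of the tested genes. Over all 27025 genes of the promoter table the shares were 21.7% for CHR, 41.1% for CCAAT and 5.9% for TTTNNCGC. A match is a description of the letters and does not show binding.

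The sorted cells carried the markers of their labels. The median of 10 endothelial markers lay between 10.17 and 10.50 in the 6 endothelial arrays and between 5.66 and 5.94 in the 6 osteoblast arrays, and the median of 8 osteoblast markers lay between 9.92 and 10.79 in osteoblasts and between 6.09 and 6.48 in endothelial cells. Osteoblast arrays were less uniform than endothelial arrays in other markers, and replicate 3 of both osteoblast groups stood apart. In replicate 3 of the tumor-bearing osteoblasts the epithelial keratin gene Krt8 read 10.13, against 6.78 to 7.54 in the other 11 arrays. The other 8 epithelial markers, among them Epcam (5.35), Krt18 (5.77) and Cdh1 (5.34), were not raised there. The 9 epithelial markers summed to a log2 level of 10.56 in that array and to at most 9.29 in the 9 arrays of the other groups. Of 10 pan-haematopoietic markers, Ptprc, which encodes CD45, read 7.28 there against 5.10 to 6.31 elsewhere, and their sum was 9.91 there against 9.14 to 10.32 in tumor-free osteoblasts. Replicate 3 of the tumor-free osteoblasts had a median of 12 neutrophil markers of 8.06, against 5.82 to 6.59 in the other 11 arrays. The part of these cells in the results below was not tested. Some results are also given without replicate 3 of the tumor-bearing osteoblasts, and fewer without the third array of both osteoblast groups.

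**Figure D1:**
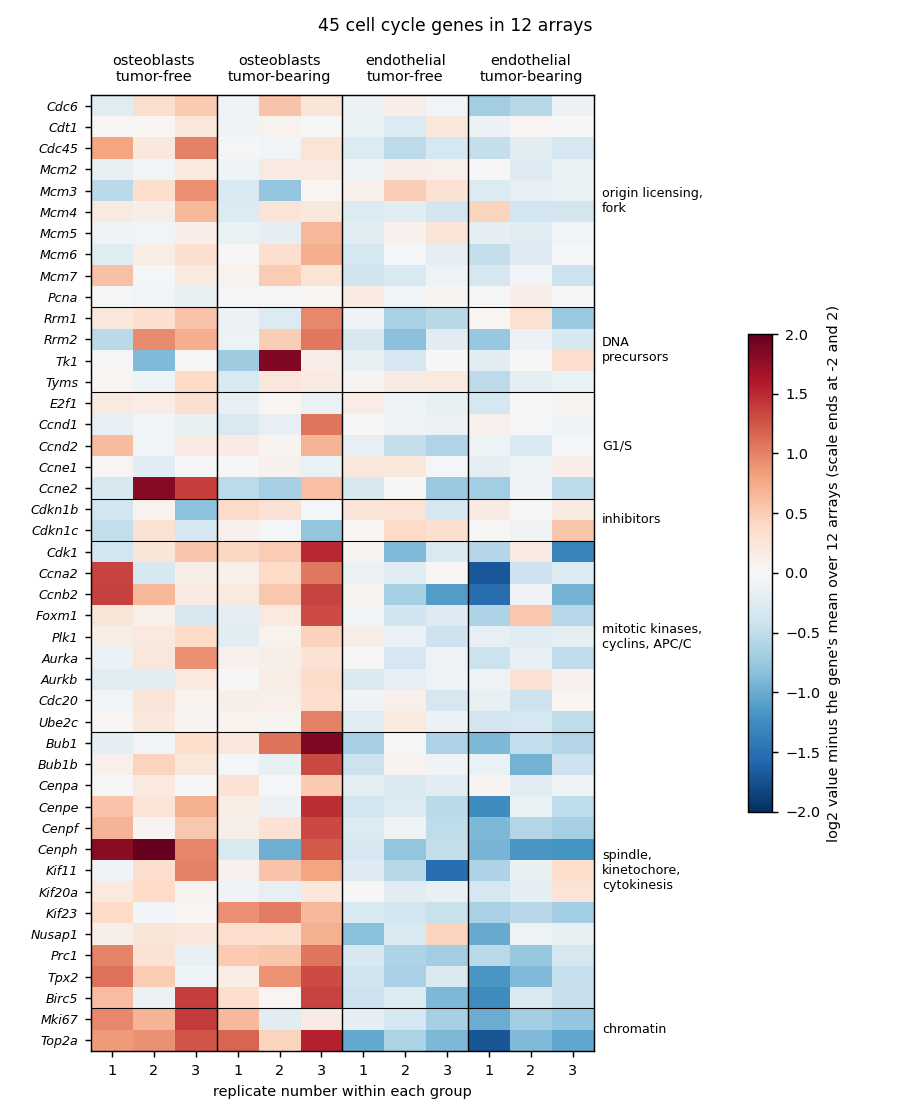
Log2 values of the 45 cell cycle genes (rows, ordered by role) in the 12 arrays (columns, 3 replicates in each of 4 groups), each minus the gene's mean over the 12 arrays. Red is above and blue below that mean, with the colour scale ending at -2 and 2; mitotic genes are redder in osteoblasts, most of all in replicate 3 of the tumor-bearing group.

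Several genes of mitosis and of the chromatin of cycling cells were higher in osteoblasts than in endothelial cells. In tumor-free mice 6 of the 45 genes differed, all higher in osteoblasts: Top2a, Mki67, Cenph, Cdc45, Prc1 and Kif23. Over all genes tested, 5.38% were called higher in osteoblasts and 12.4% in either direction (limma, Benjamini-Hochberg adjusted p under 0.05). In tumor-bearing mice 7 of the 45 differed, all higher in osteoblasts: Kif23, Top2a, Bub1, Tpx2, Prc1, Cenpf and Mki67. There, 4.89% of all genes were called higher and 10.6% in either direction. Leaving aside Cenph and Bub1, which had to be high in osteoblasts to be tested, the counts were 5 and 6. The 2 comparisons use different arrays and share only the estimate of the spread, and 4 genes (Kif23, Mki67, Prc1 and Top2a) were called in both. How many of all genes were called in both was not counted, so this overlap cannot be read as particular to the members.

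The 45 genes were also counted by direction. Cenph and Bub1, both mitotic members, had to be high in osteoblasts to be tested. They were kept in the counts and medians below, which are uncertain to that extent. In tumor-free mice the difference, osteoblasts minus endothelial cells, was above 0 in 22 of 22 mitotic members, with a median of 0.49, and in 8 of 14 S phase members, with a median of 0.19. The median over all genes tested was -0.01. In tumor-bearing mice it was above 0 in 22 of 22 mitotic members, with a median of 0.98, and in 12 of 14 S phase members, with a median of 0.32, against -0.03 over all genes. Every osteoblast array lay above every endothelial array in 20 of the 45 genes in tumor-free mice (13.6% of all genes) and in 22 in tumor-bearing mice (12.1% of all genes). All 6 osteoblast arrays lay above all 6 endothelial arrays in 10 genes, Cdc45, Mcm7, Ccnb2, Cenpe, Cenpf, Kif23, Prc1, Tpx2, Birc5 and Top2a, against 5.38% of all genes. With replicate 3 of the tumor-bearing osteoblasts left out, 6 members were called in tumor-bearing mice, Bub1 among them. Over all 14217 genes, 1333 were then called in either direction. The mitotic median was 0.56, with 20 of 22 members above 0. Every osteoblast array then lay above every endothelial array in 14 of 22 mitotic members, against 17.01% of all genes, which separate more easily with 1 array fewer. Without the third array of both osteoblast groups, the tumor-free medians were 0.42 over the mitotic and 0.08 over the S phase members. In that fit 7 members were called in tumor-free mice, among them Cenph and Tpx2 (limma adjusted p of 0.000158 and 0.0238). It called 1752 of the 14217 genes in either direction. Of 10 chondrocyte markers tested, 7 and 9 were also higher in osteoblasts by limma, with medians of 2.49 in tumor-free and 2.98 in tumor-bearing mice, as were 2 and 1 of 7 erythroid and 3 and 0 of 7 B cell markers. The shares of all genes called higher were 5.38% and 4.89%. Of 8 monocyte and macrophage markers, 1 was called higher and 1 lower in each group of mice. None of 7 pan-haematopoietic and 4 megakaryocyte markers was called in either. Of 12 neutrophil markers none was called by limma, 12 and 9 were above 0, and 2 and 0 had an unadjusted p under 0.05. The part of such cells in the cell cycle values was not tested.

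**Figure D2:**
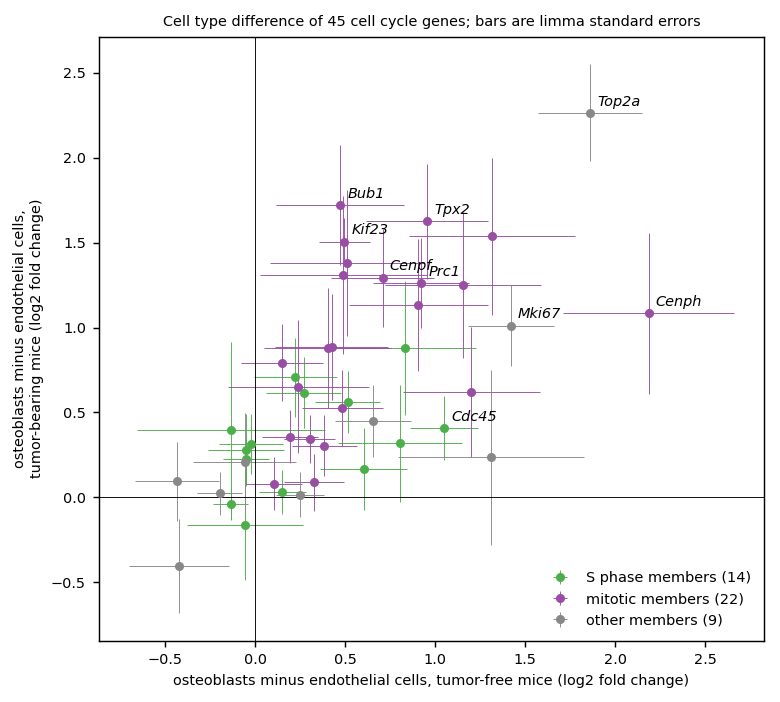
Log2 fold change of osteoblasts over endothelial cells in tumor-free mice (x axis) and in tumor-bearing mice (y axis) for the 45 genes, with bars for the standard error from limma and names for the 9 genes called in either. All 22 mitotic members lie above 0 on both axes, among them Cenph and Bub1, which had to be high in osteoblasts to be tested. Several S phase members lie near 0.

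Mki67 and Top2a, the 2 chromatin genes, were called in both groups of mice. Top2a encodes topoisomerase IIα, which untangles sister chromatids. It read 9.01, 9.08 and 9.42 in osteoblasts and 7.14, 7.53 and 7.26 in endothelial cells of tumor-free mice. In tumor-bearing mice it read 9.33, 8.61 and 9.71 in osteoblasts and 6.46, 7.28 and 7.12 in endothelial cells. No osteoblast array came within the endothelial range. The log2 fold change by limma was 1.86 (SE 0.29, adjusted p = 0.00158) in tumor-free mice and 2.26 (SE 0.29, adjusted p = 0.000472) in tumor-bearing mice. A dimmer second probe set of Top2a, with a mean of 5.93, did not show this difference, and averaging the probe sets lowered the values to 0.99 and 0.87, which still passed.

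Mki67 encodes Ki-67, a coat protein of mitotic chromosomes used as a marker of cycling cells. It read 8.69, 8.42 and 9.13 in osteoblasts and 7.53, 7.38 and 7.07 in endothelial cells of tumor-free mice. In tumor-bearing mice the readings were 8.37, 7.51 and 7.90 in osteoblasts and 6.73, 7.06 and 6.96 in endothelial cells. Osteoblast arrays were above endothelial arrays in each pair of groups, although the lowest tumor-bearing osteoblast array was level with the highest tumor-free endothelial array. The difference was 1.42 (SE 0.24, limma adjusted p = 0.00286) in tumor-free mice and 1.01 (SE 0.24, limma adjusted p = 0.0219) in tumor-bearing mice. The second call was lost in 5 of 22 alternatives, with an adjusted p of up to 0.0786: in the fit of only these groups and without replicate 1 or 3 of either tumor-bearing cell type (0.0521 without replicate 3 of the osteoblasts).

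Among the 13 spindle, kinetochore and cytokinesis genes, 3 were called in tumor-free mice and 5 in tumor-bearing mice, all higher in osteoblasts. The 3 include Cenph and the 5 include Bub1, which had to be high in osteoblasts to be tested. Over all genes 5.38% and 4.89% were called higher in osteoblasts. Kif23 encodes the kinesin of the central spindle needed for cytokinesis. It read 7.31, 6.85 and 6.94 in tumor-free and 7.82, 7.94 and 7.56 in tumor-bearing osteoblasts, against 6.60, 6.54 and 6.46 in tumor-free and 6.25, 6.35 and 6.21 in tumor-bearing endothelial cells. The 4 groups did not overlap, with tumor-bearing osteoblasts highest and tumor-bearing endothelial cells lowest. Its difference was 0.50 (SE 0.14, limma adjusted p = 0.0416) in tumor-free mice, a call kept in 12 of 22 alternatives, and 1.51 (SE 0.14, limma adjusted p = 5.505e-05) in tumor-bearing mice, kept in 22 of 22. The tumor-free call was lost without any 1 of the 6 endothelial arrays, replicate 1 of the tumor-bearing osteoblasts or replicate 1 or 3 of the tumor-free osteoblasts, with an adjusted p of up to 0.127. A fit of only the groups compared lost it too (limma adjusted p = 0.0994). Prc1 encodes a microtubule bundler of the same midzone. It read 7.87, 7.17 and 6.73 in tumor-free and 7.40, 7.43 and 7.95 in tumor-bearing osteoblasts, against 6.56, 6.25 and 6.18 and then 6.33, 6.12 and 6.53 in the endothelial groups. The difference was 0.92 (SE 0.27, limma adjusted p = 0.0478, kept in 9 of 22 alternatives) and 1.26 (SE 0.27, limma adjusted p = 0.0119, kept in 22 of 22). The tumor-free call was lost without any 1 array other than replicate 3 of either osteoblast group, with an adjusted p of up to 0.143, and without replicate 1 of the tumor-free osteoblasts the difference was 0.61. Other losses included the fit with no filter (limma adjusted p = 0.0612).

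Bub1 encodes a kinase of the spindle checkpoint. It read 6.17, 7.04 and 7.82 in osteoblasts and 5.06, 5.45 and 5.36 in endothelial cells of tumor-bearing mice, and the difference was 1.72 (SE 0.35, limma adjusted p = 0.0104, and 0.0142 with no filter). The endothelial readings there are below the percentile used as a filter, so the size of this difference is uncertain. In tumor-free mice the osteoblast arrays at 5.75, 5.90 and 6.30 overlapped the endothelial arrays at 5.29, 5.92 and 5.33, with a difference of 0.47 that did not pass (limma adjusted p = 0.496). Tpx2 encodes an activator of Aurora A on spindle microtubules. It read 6.61, 7.36 and 7.76 against 5.29, 5.58 and 5.99 in tumor-bearing mice (1.63, SE 0.34, limma adjusted p = 0.0109) and 7.55, 6.97 and 6.38 against 6.06, 5.80 and 6.16 in tumor-free mice (0.96, adjusted p = 0.104). Osteoblast arrays lay above endothelial arrays in both. Cenpf, a large protein of the outer kinetochore, read 7.02, 7.20 and 8.22 against 6.00, 6.32 and 6.23 in tumor-bearing mice (1.29, SE 0.29, limma adjusted p = 0.0159) and differed by 0.71 in tumor-free mice (adjusted p = 0.161). The Cenpf call was lost when the first tumor-bearing endothelial array was left out and, as for Bub1, in a fit of only the groups compared (adjusted p of up to 0.0631 for Cenpf and 0.0529 for Bub1). For these 3 genes, a call in one comparison and not in the other does not show that the cell type difference changed with tumor, since the test of that change did not pass (limma adjusted p of 0.734, 0.859 and 0.857).

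Cenph, a subunit of the inner kinetochore, was the most variable of these genes. It read 6.98, 7.33 and 6.16 in tumor-free osteoblasts, against 4.84, 4.38 and 4.69 in tumor-free endothelial cells. The endothelial readings are below the filter's percentile, which lay between 5.51 and 5.61, so the size of the difference, 2.19 (SE 0.48), is uncertain. The limma adjusted p was 0.0119, and 0.0167 with no filter. In tumor-bearing mice, osteoblasts read 4.87, 4.21 and 6.41 and endothelial cells 4.24, 4.02 and 3.98. Replicate 2 of the osteoblasts fell within the endothelial range and the difference of 1.08 did not pass (limma adjusted p = 0.205). The other 7 genes of this role, Bub1b, Cenpa, Cenpe, Kif11, Kif20a, Nusap1 and the survivin gene Birc5, differed by 0.30 to 1.20 in tumor-free and by 0.09 to 1.25 in tumor-bearing mice without passing.

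**Figure D3:**
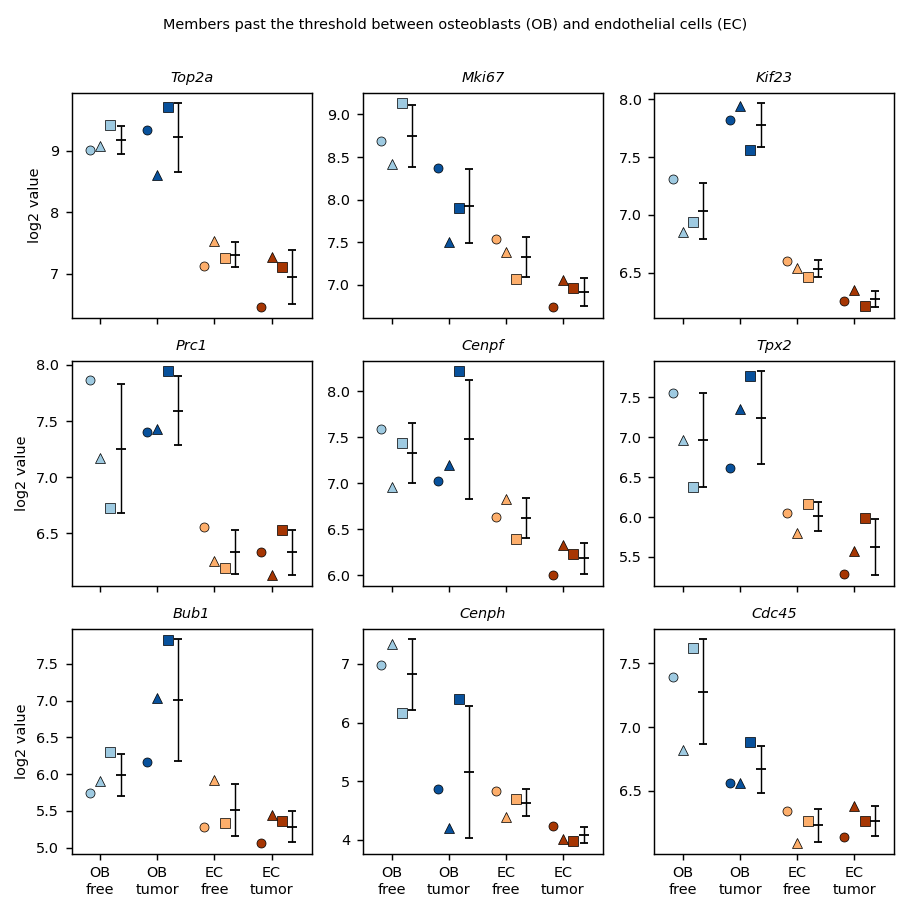
Log2 values in each array for the 9 genes called between osteoblasts (OB) and endothelial cells (EC) in tumor-free or tumor-bearing mice; circles, triangles and squares are replicates 1, 2 and 3, and the black bars give mean and SD (n = 3). Top2a, Mki67, Kif23, Prc1, Cenpf, Tpx2 and Cdc45 separate the cell types within both groups of mice. Cenph, Cdc45 and Mki67 have their highest mean in tumor-free osteoblasts.

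None of the 9 mitotic kinases, cyclins and proteolysis genes passed in either comparison by limma, where 1 and 6 of them had an unadjusted p under 0.05, all higher in osteoblasts, against 10.5% of all genes in tumor-free and 10.8% in tumor-bearing mice. Ccnb2, which encodes cyclin B2, read 9.60, 8.89 and 8.40 in tumor-free and 8.40, 8.76 and 9.58 in tumor-bearing osteoblasts. In endothelial cells it read 8.28, 7.56 and 7.10 and then 6.70, 8.15 and 7.27. All 6 osteoblast arrays were above all 6 endothelial arrays, and the differences were 1.32 and 1.54 (limma adjusted p = 0.101 and 0.0623). The mitotic ubiquitin-conjugating enzyme gene Ube2c differed by 0.15 in tumor-free and by 0.79 in tumor-bearing mice (limma adjusted p = 0.774 and 0.0532), the kinase gene Cdk1 by 0.51 and 1.38 (0.552 and 0.0702) and the cyclin A2 gene Ccna2 by 0.49 and 1.31 (0.608 and 0.112). The transcription factor gene Foxm1, the kinase genes Plk1, Aurka and Aurkb and the activator gene Cdc20 differed by 0.11 to 0.49 and by 0.08 to 0.65.

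Of the 14 S phase members 1 was called in tumor-free mice and 0 in tumor-bearing mice by limma. Over all genes 5.38% and 4.89% were called higher in osteoblasts. A limma unadjusted p under 0.05 was found for 4 and 3 S phase members, all higher in osteoblasts, against 10.5% and 10.8% of all genes. The called gene was Cdc45, which activates the Mcm helicase. It read 7.39, 6.82 and 7.62 in tumor-free osteoblasts and 6.34, 6.09 and 6.26 in tumor-free endothelial cells, which did not overlap (1.05, SE 0.19, limma adjusted p = 0.00426, kept in 22 of 22 alternatives). In tumor-bearing mice it read 6.57, 6.56 and 6.88 against 6.14, 6.38 and 6.27, again without overlap, and the difference of 0.41 did not pass (limma adjusted p = 0.236). The helicase gene Mcm7 had all 6 osteoblast arrays, from 6.23 to 6.85, above all 6 endothelial arrays, from 5.83 to 6.19, with differences of 0.51 and 0.56 (limma adjusted p = 0.1 and 0.0794). Mcm2, Mcm3, Mcm4, Mcm5, Mcm6, Cdc6, Cdt1 and the sliding clamp gene Pcna differed by between -0.14 and 0.60 in tumor-free and between -0.16 and 0.71 in tumor-bearing mice. The 2 probe sets of Pcna disagree: the one used read 10.60 to 10.91 over the 12 arrays and the other 8.80 to 11.50.

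Of the 4 nucleotide supply genes none was called by limma, and 1 and 0 had an unadjusted p under 0.05, against the same shares of all genes, 10.5% and 10.8%. The ribonucleotide reductase genes Rrm1 and Rrm2 differed by 0.80 and 0.83 in tumor-free mice and by 0.32 and 0.88 in tumor-bearing mice, and the thymidylate synthase gene Tyms by -0.02 and 0.31. The thymidine kinase gene Tk1 read 10.00 in replicate 2 of the tumor-bearing osteoblasts, against 7.26 to 8.48 in the other 11 arrays. Its dimmer second probe set read 6.26 in that array and 6.25 to 6.91 in the others, so the 2 probe sets disagree on that reading.

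The genes of the G1 to S transition and the inhibitors did not pass by limma in either comparison. Of the 5 former, 2 had an unadjusted p under 0.05 in tumor-free mice and 0 in tumor-bearing mice, and of the 2 inhibitors 0 had in either, again against 10.5% and 10.8% of all genes. The cyclin D2 gene Ccnd2 had osteoblast arrays above endothelial arrays in both groups of mice, with differences of 0.65 and 0.45 (limma adjusted p = 0.0756 and 0.244). The cyclin E2 gene Ccne2 read 6.14, 8.29 and 7.85 in tumor-free osteoblasts and 5.72 to 6.49 in the 6 endothelial arrays, a difference of 1.31 with a wide spread (limma adjusted p = 0.146). The cyclin E1 gene Ccne1, the cyclin D1 gene Ccnd1 and E2f1 differed by between -0.20 and 0.25. The inhibitor genes Cdkn1b (p27) and Cdkn1c (p57), which hold cells out of the cycle, differed by -0.43 and -0.42 in tumor-free mice and by 0.09 and -0.41 in tumor-bearing mice.

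Other genes of the same processes, taken from lists that hold no member, were set beside these. Of 47 other mitosis genes tested, 4 were called in tumor-free mice, the condensin genes Smc4 (1.01) and Ncaph (0.87), the spindle gene Tacc3 (1.45) and Hmmr (1.61), all higher in osteoblasts. In tumor-bearing mice 7 were called, all higher in osteoblasts, among them Smc4 (1.59), Cdca8 (1.16), Ckap2 (1.71) and Hmmr (1.96). Over all genes 5.38% and 4.89% were called higher in osteoblasts. The difference was above 0 in 42 of the 47 in tumor-free mice, with a median of 0.48, and in 43 in tumor-bearing mice, with a median of 0.63. Some genes of this list were above the filter's percentile in few arrays: Hmmr in 4, Ncaph in 5, and Ska1, Ttk, Racgap1 and Melk in 3 each. Such genes may have been tested only because they were high in osteoblasts, as for Cenph and Bub1. This was not examined, so the counts by direction and the sizes for Hmmr and Ncaph are uncertain. Smc4, Tacc3 and Cdca8 were above the percentile in every array. Of 25 other replication genes tested, 0 were called by limma in tumor-free mice, where 0 had an unadjusted p under 0.05. In tumor-bearing mice 3 were called, against 4.89% of all genes: the kinase activator gene Dbf4 (2.09), the polymerase gene Pola1 (1.46) and Hells (1.51), all higher in osteoblasts. Of 24 other genes of G1 and cell cycle exit 3 were called in tumor-free mice, near the 12.4% of all genes called in either direction. These were Cdk2 (-0.90), Btg2 (-1.27) and Hes1 (-0.95), all lower in osteoblasts. In tumor-bearing mice 4 were called, against 10.6% of all genes in either direction. Myc (1.63), Cdk6 (1.06) and Cdk4 (0.69) were higher in osteoblasts and the retinoblastoma gene Rb1 (-0.95) was lower.

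The tumor-bearing osteoblast arrays were not alike in mitotic transcripts. The median of the 22 mitotic members was 6.73, 6.92 and 7.51 in these arrays, 6.67, 6.87 and 6.80 in tumor-free osteoblasts, 6.04, 6.41 and 6.22 in tumor-bearing and 6.42, 6.34 and 6.35 in tumor-free endothelial cells. Replicate 3 of the tumor-bearing osteoblasts was the highest of its group in 21 of the 22 mitotic members, all but Kif23, against 36.23% of all genes tested. It was the highest of all 6 osteoblast arrays in 14 of the 22, against 18.11% of all genes. Of 47 other mitosis genes it was the highest of its group in 39, and of the 14 S phase members in 8. The cyclin D1 gene Ccnd1 read 8.64 in that array and 7.27 to 7.67 in the other 11. Krt8 (10.13) was high in the same array without the other 8 epithelial markers. The median of 10 pan-haematopoietic markers was 6.24 there, 6.54 in the third tumor-free osteoblast array and 5.34 to 5.95 in the other 10 arrays. The chondrocyte marker median was 7.98 there and 9.75 and 10.04 in the other tumor-bearing osteoblast arrays. In tumor-free osteoblasts it was 8.34, 10.17 and 8.15, so a low value was not particular to that array. The part of these in the mitotic values was not tested. In tumor-free osteoblasts, replicate 3 was the highest of its group in 11 of 14 S phase members, with an S phase median of 7.37 against 6.80 and 6.82, and in 8 of 22 mitotic members, against 38.68% of all genes. That array had the high neutrophil markers, whose part was not tested either.

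**Figure D4:**
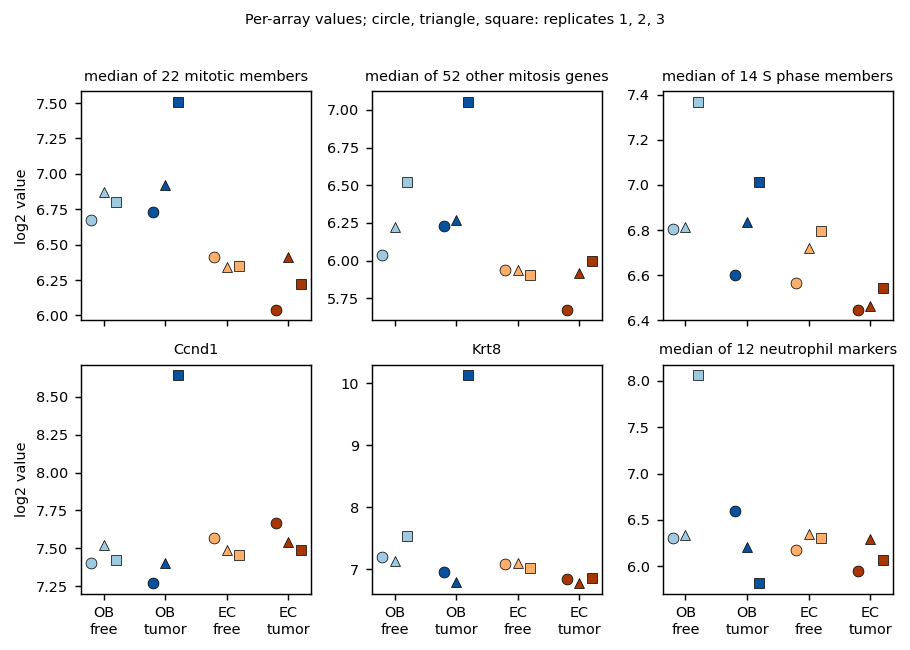
Log2 values in each array: the medians of the 22 mitotic members, of 52 other mitosis genes and of the 14 S phase members (top row), and the values of Ccnd1, Krt8 and the median of 12 neutrophil markers (bottom row), for osteoblasts (OB) and endothelial cells (EC) of tumor-free and tumor-bearing mice. The square of the tumor-bearing osteoblasts, replicate 3, is the highest of the 12 arrays in both mitotic panels and in Ccnd1 and Krt8, and the square of the tumor-free osteoblasts, replicate 3, is the highest in the S phase and neutrophil panels.

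Tumor in the bones left no cell cycle member past the threshold in osteoblasts. Of the 45 genes, 0 were called by limma, against 0.0563% of all genes tested, and 8 had an unadjusted p under 0.05, against 9.78% of all genes. Of these 8, 3 were higher in tumor-bearing osteoblasts (Kif23, Bub1 and Cdkn1b) and 5 lower (Cenph, Mki67, Cdc45, Ccne2 and E2f1). The median difference, tumor-bearing minus tumor-free, was 0.06 over the 45 genes, 0.14 over the mitotic and 0.04 over the S phase members, and -0.02 over all genes tested. When replicate 3 of the tumor-bearing group was left out, the 3 medians of the cell cycle genes were -0.11, -0.06 and -0.12. Without the third array of both osteoblast groups they were -0.06, -0.08 and -0.01. All 12 neutrophil markers read lower in tumor-bearing osteoblasts, with a median of -0.76, and none passed by limma (1 at an unadjusted p under 0.05). Their array medians were 6.59, 6.21 and 5.82 in tumor-bearing and 6.31, 6.34 and 8.06 in tumor-free osteoblasts, where replicate 3 stood apart. Of 7 erythroid and 7 B cell markers, 6 of each list read lower in tumor-bearing osteoblasts, with medians of -0.52 and -0.48, 0 called and 3 of each list at an unadjusted p under 0.05. Other blood lists went the other way or were split. Above 0 were 6 of 8 monocyte and macrophage, 4 of 7 pan-haematopoietic and 2 of 4 megakaryocyte markers, with medians of 0.13, 0.23 and 0.02 and 0 called. The part of these lineages in the cell cycle values was not tested.

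Kif23 had the smallest p. Its arrays, given above, did not overlap, with 7.78 ± 0.19 in tumor-bearing and 7.03 ± 0.24 in tumor-free osteoblasts (mean ± SD, n = 3). The difference was 0.74 (SE 0.14, 95% interval 0.43 to 1.05) with a limma adjusted p of 0.118, and the adjusted p was between 0.0699 and 0.558 in the 22 alternatives. Nusap1, a microtubule-binding spindle gene, was the only other member whose tumor-bearing osteoblast arrays (6.96, 6.98 and 7.34) all lay above the tumor-free arrays (6.75, 6.87 and 6.84), against 6.18% of all genes, with a difference of 0.27 (limma adjusted p = 0.808). Bub1 differed by 1.03 (SE 0.35, limma adjusted p = 0.379), and its groups overlapped.

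Mki67 and E2f1 were the members with all tumor-bearing osteoblast arrays below the tumor-free arrays, against 8.36% of all genes. Mki67 was at 7.93 ± 0.43 and 8.75 ± 0.36 (n = 3), a difference of -0.82 (SE 0.24, limma adjusted p = 0.308). E2f1, a transcription factor of S phase genes, read 6.12, 6.33 and 6.15 against 6.46, 6.43 and 6.60, a difference of -0.30 (SE 0.13, limma adjusted p = 0.511). Cenph differed by -1.66 (SE 0.48, limma adjusted p = 0.302), with replicate 3 of the tumor-bearing group at 6.41 within the tumor-free range. The other tumor-bearing readings are below the filter's percentile, so this size too is uncertain. Cenph was called, as 1 of 45 genes, only when that array was left out (-2.28, adjusted p = 0.0318) or when the third array of both osteoblast groups was (-2.62, adjusted p = 0.00817).

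Of the S phase members, Cdc45 differed by -0.61 in osteoblasts (SE 0.19, limma adjusted p = 0.344), Mcm3 by -0.59 (SE 0.32, adjusted p = 0.6) and Mcm6 by 0.28 (SE 0.21, adjusted p = 0.698). Tk1 differed by 0.73 (SE 0.52, limma adjusted p = 0.685), which rests on the single reading of 10.00, Rrm1 by -0.19 and Tyms by -0.08. Ccne2 differed by -1.16 (SE 0.52, limma adjusted p = 0.506) and Ccnd1 by 0.32 (SE 0.29, adjusted p = 0.746), the latter with 1 high array. The inhibitor gene Cdkn1b read 10.57, 10.47 and 10.16 in tumor-bearing and 9.81, 10.27 and 9.37 in tumor-free osteoblasts, which overlap (0.59, SE 0.23, limma adjusted p = 0.452). Its dimmer second probe set did not follow, with 7.51, 7.65 and 7.83 against 7.73, 7.57 and 8.39. Cdkn1c differed by -0.06. Of the mitotic kinases and cyclins, Cdk1 differed by 0.67 (SE 0.43, limma adjusted p = 0.653), Aurkb by 0.24 and Ube2c by 0.28. Top2a differed by 0.05 between tumor-bearing and tumor-free osteoblasts, with a 95% interval from -0.59 to 0.68.

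Of the genes outside the set, Myc, a driver of growth and of entry into the cycle, was called in osteoblasts. It read 10.34, 10.12 and 10.51 in tumor-bearing and 8.97, 9.22 and 8.49 in tumor-free osteoblasts, without overlap. The difference was 1.43 (SE 0.19, limma adjusted p = 0.0415), and it passed in 9 of 22 alternatives, with an adjusted p between 0.0201 and 0.458. It was lost without any 1 array other than replicate 2 or 3 of the tumor-free osteoblasts. The replication kinase activator gene Dbf4 read 7.38, 7.35 and 8.73 against 5.37, 5.76 and 6.32, a difference of 2.00 (SE 0.35) that did not pass (limma adjusted p = 0.105). Rb1 differed by -1.05 and the inhibitor gene of mitotic proteolysis Fbxo5 by -1.25 (limma adjusted p = 0.254 and 0.344). None of the 25 other replication genes and none of the 47 other mitosis genes passed by limma, against 0.0563% of all genes. Of these lists 3 and 2 genes had an unadjusted p under 0.05, against 9.78% of all genes.

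**Figure D5:**
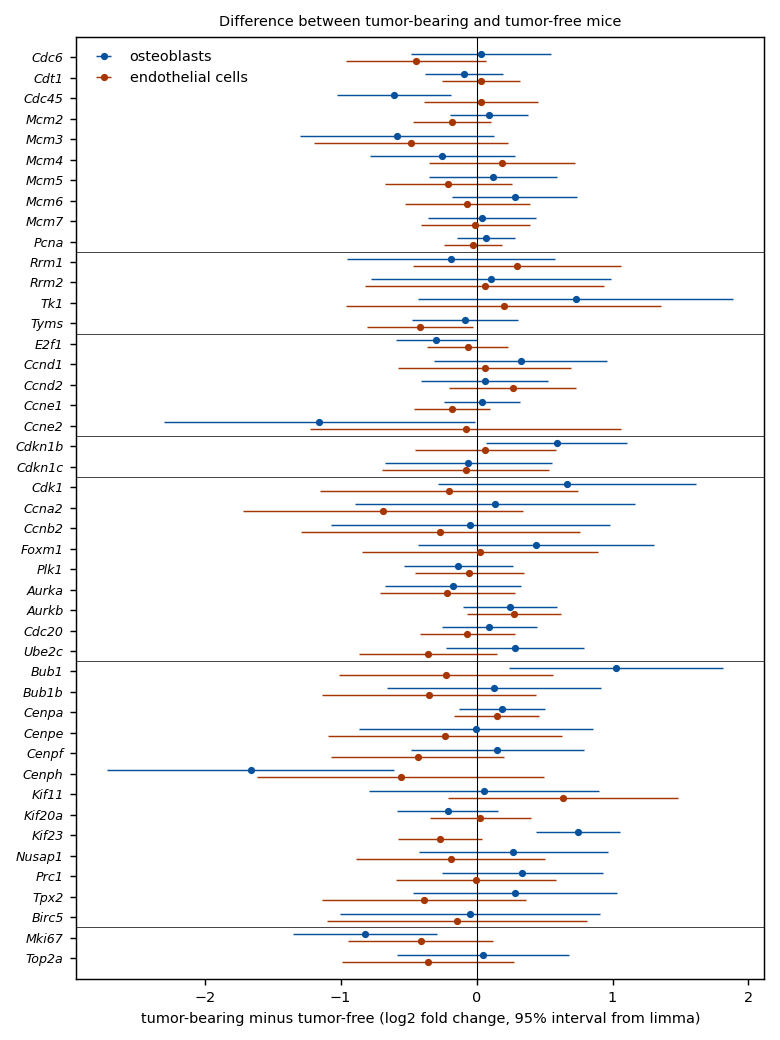
Log2 fold change of tumor-bearing over tumor-free mice for the 45 genes, ordered by role, in osteoblasts (blue) and endothelial cells (brown), with 95% intervals from limma. Most intervals include 0; in osteoblasts Kif23, Bub1 and Cdkn1b lie above it and Cenph, Mki67, Cdc45, Ccne2 and E2f1 below it, and in endothelial cells Tyms lies below it, all before adjustment over the genes tested.

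In endothelial cells no cell cycle member passed either, and most mitotic members read lower in tumor-bearing mice. Of the 45 genes 0 were called by limma, against 0.0141% of all genes, and 1, Tyms, had an unadjusted p under 0.05, against 4.59% of all genes. The difference was below 0 in 17 of 22 mitotic members, with a median of -0.21, and in 8 of 14 S phase members, with a median of -0.02, while the median over all genes was 0.01. All tumor-bearing arrays lay below all tumor-free arrays in 8 members, Mcm3, Tyms, Ccna2, Ube2c, Cenpf, Cenph, Kif23 and Mki67, against 4.87% of all genes. In 0 members did they all lie above, against 5.63% of all genes. Cenph was above the filter's percentile in 0 endothelial arrays, so its place among the 8 is uncertain. Replicate 1 of the tumor-bearing endothelial cells had the lowest mitotic median of the 12 arrays, at 6.04. Of the other mitosis genes 34 of 47 were below 0, with a median of -0.12.

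Tyms, which makes thymidylate for DNA synthesis, read 6.46, 6.78 and 6.85 in tumor-bearing and 7.03, 7.14 and 7.17 in tumor-free endothelial cells. The groups did not overlap, and the difference was -0.42 (SE 0.18, unadjusted p = 0.0381, limma adjusted p = 0.9999). Mcm3 read 6.19, 6.29 and 6.35 against 6.57, 6.96 and 6.74 (-0.48, SE 0.32). Ccna2 read 5.49, 6.78 and 6.91 against 7.07, 6.96 and 7.21, with replicate 1 of the tumor-bearing group far below the rest (-0.69, SE 0.46). Kif23 differed by -0.27 (SE 0.14), Cenpf by -0.43 (SE 0.29), Mki67 by -0.41 (SE 0.24), Ube2c by -0.36 (SE 0.23) and Cenph by -0.56 (SE 0.48). Every endothelial reading of Cenph is below the filter's percentile, so that size is uncertain. The limma adjusted p of all 45 genes was 0.9999.

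Other members gave mixed values in endothelial cells. Cdc6 differed by -0.45 (SE 0.23) and Mcm2 by -0.18 (SE 0.13), the kinesin gene Kif11 by 0.64 (SE 0.38) and Aurkb by 0.27 (SE 0.16). Among nucleotide supply genes Rrm1 differed by 0.30 and Tk1 by 0.20. Of the G1 to S genes Ccne1 differed by -0.18, Ccnd2 by 0.26 and E2f1 by -0.07, and the inhibitor genes Cdkn1b and Cdkn1c by 0.06 and -0.08. Top2a differed by -0.36, with a 95% interval from -0.99 to 0.28. Myc differed by 0.33 (limma adjusted p = 0.9999).

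The tumor effects of the cell types were compared directly as the effect in osteoblasts minus the effect in endothelial cells. Of the 45 genes 0 were called by limma, against 0.0281% of all genes, and 3 had an unadjusted p under 0.05, against 6.47% of all genes. Kif23 gave 1.01 (SE 0.20, limma adjusted p = 0.276), with arrays of tumor-bearing mice all above those of tumor-free mice in osteoblasts and all below them in endothelial cells. Bub1 gave 1.25 (SE 0.50, limma adjusted p = 0.734) and Cdc45 -0.64 (SE 0.27, limma adjusted p = 0.754). The median over the 22 mitotic members was 0.28, and -0.01 when replicate 3 of the tumor-bearing osteoblasts was left out. The median over the 14 S phase members was 0.07.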

How the data were processed

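Deposited log2 values of 12 Affymetrix Mouse Gene 1.0 ST arrays were used with the normalization the authors gave them. The package affy is named in the submitters' processing notes, without a version; how probes were summarised is not given in the sources used. Per the labels' protocols, RNA of 5000 cells was amplified by single primer isothermal amplification, which can distort transcript proportions. Array medians lay between 5.95 and 6.04.

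Of 34760 probe sets, 21640 had 1 gene symbol, 1321 several and 11799 none; 21553 of the single-symbol probe sets were matched by gene number to a RefSeq table of GRCm38.p6. A gene was tested if above its array's 40th percentile in at least 3 of 12 arrays. A model with 1 coefficient per group was fitted with limma 3.58.1 (R 4.3.3), with two-sided p-values adjusted by Benjamini-Hochberg over 14217 genes. P-values measure the spread between these arrays. The members, the lists and the rule for named genes, which takes the called members and the 3 smallest p of each role in each tumor comparison, were chosen with earlier results of these data known. The steps were tested on simulated data. Replicate numbers were checked for pairing: over 18 same-numbered pairs the correlation of deviations from the group means lay between -0.08 and 0.07, and no block was used. Such correlations cannot exclude that arrays share mice or a run. In each of the 4 groups replicate 3 had the highest reading for the largest share of all genes, 36.23% to 40.83%. The cause was not tested. Alternatives were other normalizations and filters, the mean of probe sets, other variance settings, a replicate block, a fit of only the groups compared, and each array left out; counts of lists without 1 array were added after seeing the data.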

Additional observations from a re-analysis of the deposited data

How the results depend on the processing

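Each comparison was repeated under up to 22 alternatives. In osteoblasts the count of members called for tumor was 0, except without replicate 3 of the tumor-bearing osteoblasts (1, range 0 to 1 over single arrays left out) and without the third array of both osteoblast groups (1); the gene was Cenph. In endothelial cells, and for the difference of the tumor effects, it was 0 under every alternative run. Between the cell types it ranged from 4 to 9 in tumor-free mice and from 5 to 9 in tumor-bearing mice with 1 array left out, against 6 and 7, and a fit of only the tumor-bearing groups gave 4. Over all 14217 genes, the counts with 1 array left out ran from 1241 to 1845 and from 1147 to 1594. The fit of only the tumor-bearing groups called 1243. No value of a result that passed changed its direction. With the replicate block, 0 members were called for tumor in either cell type, 0 for the difference, and 5 and 10 between the cell types in tumor-free and tumor-bearing mice. That fit called 1653 and 1402 of all genes between the cell types. The labels do not say whether the numbers pair samples. Over all genes the count called for tumor in osteoblasts was 8, and it lay between 0 and 45 over the alternatives; in endothelial cells it was 2 (2 to 6) and for the difference 4 (0 to 8). The causes of these changes in count were not tested. Fits without an array also hold fewer arrays. With 3 arrays per group, small tumor effects may not be detectable: the 95% intervals of the tumor effect of Top2a reach from -0.59 to 0.68 in osteoblasts.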
